A study of Rattus norvegicus with 6 samples.

Results

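The 10 genes described here are the core components of the circadian clock, Arntl, Clock, Per1, Per2, Per3, Cry1, Cry2, Nr1d1, Nr1d2 and Dbp. They were taken by gene symbol from an expression table of 23800 features, in which each had 1 row. That table, whose build was not given in the sources used here, placed Arntl and Dbp on chromosome 1, Per1 and Nr1d1 on 10, Cry2 on 3, Per3 on 5, Cry1 on 7, Per2 on 9, Clock on 14 and Nr1d2 on 15. The values came from bulk lumbar dorsal root ganglia, the clusters of sensory neuron cell bodies beside the spinal cord, of Sprague Dawley rats. In the bone cancer pain group (BCP, 3 samples, replicates 1, 2 and 3), living cells of MRMT-1, which is a breast carcinoma line of the rat, had been put into the marrow cavity of the left tibia in 10 µL of medium. In the sham group (sBCP, 3 samples, replicates 1, 3 and 4), the injected MRMT-1 cells had been boiled. Both groups therefore carried the drilled bone and tumour cell material, were anesthetized with isoflurane for the injection, and gave ganglia of the injected side from levels L3 to L5 on day 17 after saline perfusion under pentobarbital. The labels name no transgene, and they do not say whether a sample held the ganglia of 1 animal. The rats lived in a regular light and dark cycle, and the hour of collection was not given in the sources used here, so no circadian phase can be assigned to any library.

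The mammalian clock is a feedback loop of transcription. Arntl (also named Bmal1) pairs with Clock, and the pair activates genes with E-box sequences, among them the Per and Cry genes, the nuclear receptors Nr1d1 and Nr1d2 (REV-ERB alpha and beta) and Dbp. Per and Cry proteins then inhibit the pair, and the REV-ERB proteins repress Arntl through ROR elements. In tissues with a running clock, Arntl therefore peaks at a time of day roughly opposite to Dbp, Nr1d1, Nr1d2 and the Per genes. Sensory ganglia are among the peripheral tissues that hold such a clock.

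Promoter sequence is given for 3 members, since the opposed arms are known to act through such elements. All 10 members matched the RefSeq gene table of build GRCr8, and 9 had promoter windows, Cry1 being the other. In the 250 bases before a RefSeq start site, both strands were searched for the E-box CACGTG, the related E-prime box CACGTT, the D-box bound by Dbp and its relatives (TTANGTAA) and the ROR element (ANTNGGTCA). Of 33469 such windows of rat genes, 5.59% held the E-box, 4.07% the E-prime box, 2.04% the D-box and 2.05% the ROR element. No 2 of these matches overlapped in a member's window. Matches were found for 4 members, in 5 of 11 windows, and are descriptions of letters, not sites shown to be bound. The windows are Arntl at chr1:176766078-176766327 (+ strand), Per2 at chr9:99496994-99497243 (- strand) and an internal start of Nr1d1 at chr10:84229455-84229704 (- strand), printed 5′ to 3′ with the matches in capitals.
Arntl: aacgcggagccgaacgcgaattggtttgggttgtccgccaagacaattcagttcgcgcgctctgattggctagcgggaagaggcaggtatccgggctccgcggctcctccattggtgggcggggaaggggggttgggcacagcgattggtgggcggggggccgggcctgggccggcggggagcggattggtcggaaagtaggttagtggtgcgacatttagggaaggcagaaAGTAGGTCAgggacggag
Per2: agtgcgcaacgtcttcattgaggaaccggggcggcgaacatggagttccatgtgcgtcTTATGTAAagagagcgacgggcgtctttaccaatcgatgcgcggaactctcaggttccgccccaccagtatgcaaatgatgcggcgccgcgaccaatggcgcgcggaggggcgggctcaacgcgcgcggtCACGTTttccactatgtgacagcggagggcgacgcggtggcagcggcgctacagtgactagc
Nr1d1: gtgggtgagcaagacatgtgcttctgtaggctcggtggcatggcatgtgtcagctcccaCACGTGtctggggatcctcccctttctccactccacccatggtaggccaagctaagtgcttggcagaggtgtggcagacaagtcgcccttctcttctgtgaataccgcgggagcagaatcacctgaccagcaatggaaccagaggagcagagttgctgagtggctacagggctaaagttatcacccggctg
The capitals mark a ROR element that begins 18 bases before the start site in Arntl. In Per2 they mark a D-box at 192 bases and an E-prime box at 62 bases before the start, and in Nr1d1 an E-box at 191 bases. The 3 windows printed all hold a match and do not represent the other members. No match was found in the windows of Clock, Per1, Per3, Nr1d2 and Dbp, and the Per2 window held no E-box CACGTG. Arntl and Per2 are 1 gene from each of the opposed arms. Per2 and Nr1d1 are both among the genes that the Arntl and Clock pair activates. In sBCP replicate 1, Per2 had its highest value and Nr1d1 its lowest.

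The unit was FPKM, that is fragments per length of transcript and per size of library. The absolute depth was unknown, the summed FPKM per library lay between 479510 and 495494 in BCP and between 479167 and 486972 in sBCP, and the test covered 13710 features that 3 or more of the 6 libraries held at 1 FPKM or above. All 10 listed sensory neuron markers were detected, with a summed level of 7520 to 8584 FPKM in BCP ganglia and 6675 to 8770 in sBCP, the lowest in sBCP replicate 1. That library stood apart: it was the highest of the 6 for 28.5% of all tested features. The 8 measured skeletal muscle markers, all called lower in BCP, summed to 13.6 to 22.4 FPKM in BCP ganglia and to 537, 545 and 954 FPKM in sBCP, highest again in sBCP replicate 1. Muscle also transcribes clock genes, and the part of muscle RNA in the values below was not tested. In bulk tissue, fewer cells of a type and less RNA per cell cannot be told apart.

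No clock gene differed between BCP and sBCP ganglia beyond the spread between samples. On log2(FPKM + 1), limma called 0 of the 9 tested members at an adjusted p under 0.05 (adjusted p = 1.00 for each), beside 25 of 13710 features, or 0.182%. At an unadjusted p under 0.05 there were 0 of the 9 members and 271 features, or 1.98%. In none of the 9 did the 3 BCP and 3 sBCP values stay apart, against 740 features, or 5.40%. Of the 9, Arntl and Nr1d1 lay above 0 and 7 lay below, with a median difference (BCP minus sBCP) of -0.10, where all tested features had a median of -0.01 and 54.5% of them lay below 0. These intervals do not show that the genes were unchanged: for Per1 the 95% interval ran from -0.98 to 0.19. The labels do not state that the samples were separate animals, and the p-values then measure how far these samples scatter, some of which may be technical.

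**Figure D1:**
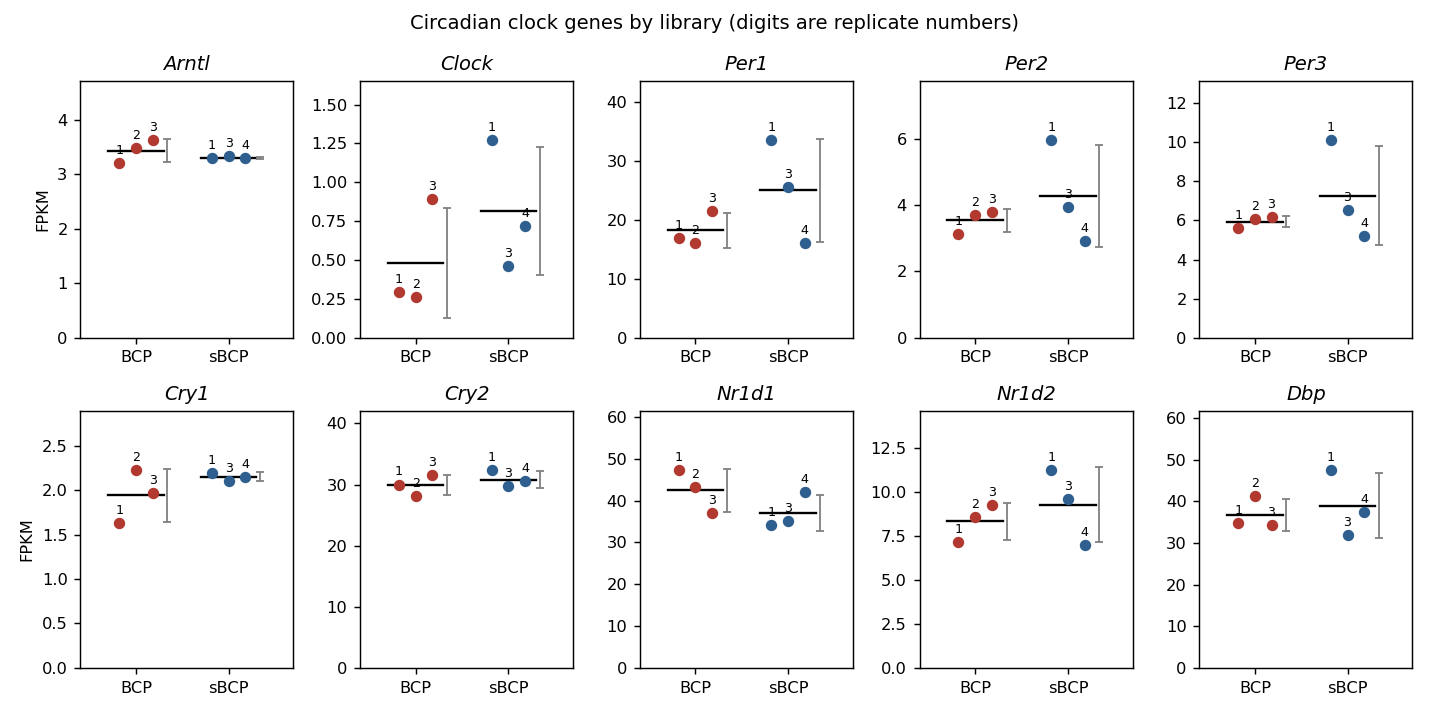
FPKM of the 10 clock genes in each library, with the replicate number above each point, the group mean as a black line and the SD (n = 3) as a grey bar. BCP is on the left and sBCP on the right of each panel, axes start at 0, and the groups overlap for every gene, with sBCP replicate 1 the highest library for Clock, Per1, Per2, Per3, Cry2, Nr1d2 and Dbp.

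Arntl, the activating partner of the loop, was the steadiest member. It was at 3.20, 3.48 and 3.62 FPKM in BCP replicates 1, 2 and 3, against 3.30, 3.33 and 3.29 FPKM in sBCP replicates 1, 3 and 4. The sBCP values lay inside the BCP range, and the highest library was 1.13 times the lowest. The means were 3.43 ± 0.215 FPKM in BCP ganglia and 3.30 ± 0.0204 in sBCP (n = 3 each, SD), a log2 difference of 0.04 with a 95% interval from -0.21 to 0.29. Only 3.17% of tested features had a smaller SD of log2(FPKM + 1) over the 6 libraries, a scale that narrows the spread of low genes.

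Clock, its partner, was low and was not tested, since 1 library of the 6 reached 1 FPKM. Its levels were 0.293, 0.264 and 0.889 FPKM in BCP replicates 1, 2 and 3 and 1.27, 0.462 and 0.720 FPKM in sBCP replicates 1, 3 and 4. The groups overlapped, and BCP replicates 1 and 2 were the lowest libraries. Its row combines 3 transcripts. In a fit with no filter, Clock had a difference of -0.30 (unadjusted p = 0.229, limma adjusted p = 1.00).

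The Per genes encode the inhibitors of the loop, and Per1 responds in addition to cyclic AMP and to glucocorticoids. Per1 was at 16.9, 16.1 and 21.5 FPKM in BCP replicates 1, 2 and 3, against 33.5, 25.5 and 16.1 FPKM in sBCP replicates 1, 3 and 4. Its sBCP libraries thus held both the highest value and the lowest, 2.08-fold apart, and enclosed all BCP values. Per1 averaged 18.2 ± 2.91 FPKM in BCP ganglia and 25.0 ± 8.71 in sBCP (n = 3 each, SD), a ratio of means of 0.726. Its log2 difference of -0.39 (SE 0.249) had an unadjusted p of 0.156 and was -0.16 without sBCP replicate 1 and -0.67 without sBCP replicate 4 (unadjusted p = 0.475 and 0.00661, limma adjusted p = 1.00 and 0.867). The authors' deposited table gives Per1 a p-value of 0.0404 and a q-value of 1.00, the only member under 0.05 there.

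Per2 was at 3.14, 3.71 and 3.78 FPKM in BCP replicates 1, 2 and 3, against 5.96, 3.94 and 2.93 FPKM in sBCP replicates 1, 3 and 4. Per3 was at 5.60, 6.08 and 6.15 FPKM in the BCP samples, against 10.1, 6.53 and 5.18 FPKM in the sBCP samples, in the same replicate order. Both repeated the pattern of Per1, with sBCP replicate 1 at the top, sBCP replicate 4 at the bottom and the 3 BCP libraries close together between them. Their log2 differences were -0.18 (interval from -0.68 to 0.32) and -0.21 (from -0.70 to 0.28), and without sBCP replicate 1 they were 0.04 and 0.03, on the other side of 0. The ratio of Per3 to Per2 FPKM stayed between 1.63 and 1.78 in every library, while each gene alone spanned 2.04-fold (Per2) and 1.96-fold (Per3).

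The cryptochromes act with the Per proteins as inhibitors. Cry2 was at 30.0, 28.2 and 31.6 FPKM in BCP replicates 1, 2 and 3, against 32.3, 29.7 and 30.5 FPKM in sBCP replicates 1, 3 and 4. Cry1, the lower of the pair, was at 1.63, 2.22 and 1.97 FPKM in the BCP samples, against 2.19, 2.10 and 2.15 FPKM in sBCP. Neither gene separated the groups, and Cry2 spanned 1.14-fold over the 6 libraries, near the 1.13-fold of Arntl, while Cry1 spanned 1.36-fold, near the 1.38-fold of Nr1d1. The intervals of the log2 difference ran from -0.21 to 0.13 for Cry2 and from -0.41 to 0.20 for Cry1. Per length, Cry2 was at 12.7 to 18.4 times the FPKM of Cry1.

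The REV-ERB receptors, repressors of Arntl, differed in direction over the libraries. Nr1d1 was at 47.2, 43.2 and 37.1 FPKM in BCP replicates 1, 2 and 3, against 34.1, 35.1 and 42.1 FPKM in sBCP replicates 1, 3 and 4. Nr1d2 was at 7.15, 8.55 and 9.24 FPKM in the BCP samples, against 11.2, 9.58 and 6.99 FPKM in sBCP. sBCP replicate 1 was thus the lowest library for Nr1d1 and the highest for Nr1d2, and the ratio of Nr1d1 to Nr1d2 was highest at 6.60 in BCP replicate 1 and lowest at 3.04 in sBCP replicate 1. Nr1d1 averaged 42.5 ± 5.11 FPKM in BCP ganglia and 37.1 ± 4.33 in sBCP (n = 3 each, SD), a log2 difference of 0.19 (SE 0.117, unadjusted p = 0.148), the lowest unadjusted p among the members. It was 0.11 without BCP replicate 1, and 0.28 without BCP replicate 3 and also without sBCP replicate 4 (unadjusted p = 0.0458 and 0.0463, limma adjusted p = 0.992 and 0.867). For Nr1d2 the log2 difference was -0.12 (interval from -0.53 to 0.28) and 0.01 without sBCP replicate 1. Nr1d1 spans positions 86683875 to 86690815 of chromosome 10 in the table. Its 3′ end shares 1059 bases with Thra, the thyroid hormone receptor alpha gene on the other strand. Whether counting used strand was not given in the sources used here, so reads of the pair may be mixed. Thra was at 68.0 ± 2.45 FPKM in BCP ganglia and 67.5 ± 3.62 in sBCP (n = 3 each, SD).

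Dbp, a PAR-domain transcription factor and a direct output of the loop, was at 34.8, 41.2 and 34.4 FPKM in BCP replicates 1, 2 and 3, against 47.4, 32.0 and 37.4 FPKM in sBCP replicates 1, 3 and 4. As for the Per genes, the sBCP libraries enclosed the BCP values. Dbp was lowest in sBCP replicate 3, however, where Per1 was second highest. Its log2 difference was -0.07 (interval from -0.42 to 0.28), and 0.08 without sBCP replicate 1.

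By mean FPKM over the 6 libraries the members ran Nr1d1 (39.8), Dbp (37.8), Cry2 (30.4), Per1 (21.6), Nr1d2 (8.79), Per3 (6.61), Per2 (3.91), Arntl (3.37), Cry1 (2.04) and Clock (0.650). Each step of this order held in all 6 libraries except 3: Nr1d1 exceeded Dbp in 5, Cry2 exceeded Per1 in 5, and Per2 exceeded Arntl in 4. Those 3 neighbouring pairs were thus not separated by their spread.

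**Figure D2:**
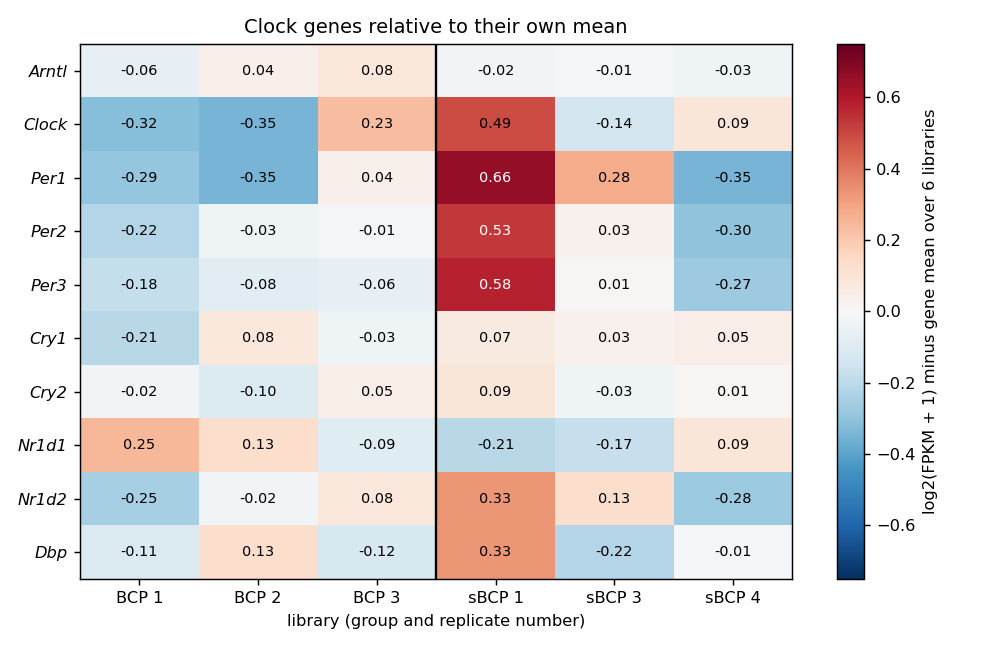
Level of each clock gene in each library, as log2(FPKM + 1) minus the gene's own mean over the 6 libraries, with BCP left of the black line and sBCP right of it. sBCP replicate 1 holds 0.66 for Per1, 0.53 for Per2, 0.58 for Per3 and 0.33 for Nr1d2 and Dbp, against -0.21 for Nr1d1, while the row of Arntl stays between -0.06 and 0.08.

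The libraries took the same order in Per2, Per3 and Nr1d2, which was sBCP replicate 1, sBCP replicate 3, BCP replicate 3, BCP replicate 2, BCP replicate 1 and sBCP replicate 4 from high to low. Of all tested features 124, or 0.904%, had this order and 73, or 0.532%, its reverse. Per1 differed from it by exchanging BCP replicates 1 and 2. The order mixes the groups, since its ends are both sBCP libraries. This order was noticed in the values of the members and gives no support of its own.

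Set against all tested features, the members ranged widely in their spread between libraries. The SD of log2(FPKM + 1) over the 6 libraries was 0.411 for Per1, larger than in 93.1% of tested features, and 0.299 for Per3 (85.8%) and 0.290 for Per2 (84.8%). For Cry2 it was 0.0660, larger than in 8.42% of features, and Arntl lay lower still. Between these lay Cry1 (31.8%), Nr1d1 (64.5%), Dbp (69.8%) and Nr1d2 (76.9%). Adding 1 narrows the spread of Arntl more than that of Cry2, which has the higher FPKM. In FPKM their spans were alike, 1.13-fold for Arntl and 1.14-fold for Cry2. The median was 0.201 over the 9 tested members and 0.145 over all tested features, and 6 members lay above that value. sBCP replicate 1 was the highest library in 6 of the 9 tested members, beside 28.5% of all features, and sBCP replicate 4 the lowest in 4, beside 21.6%.

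**Figure D3:**
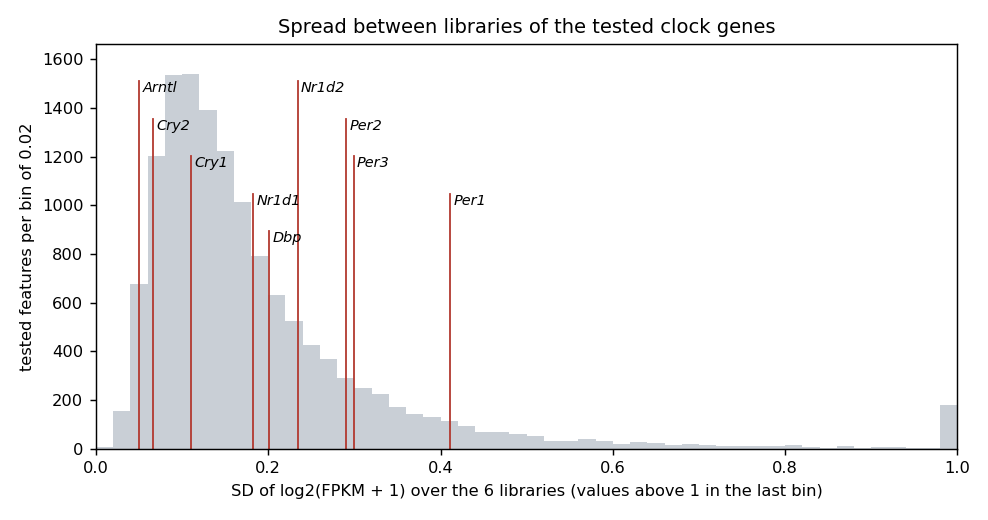
Number of tested features (vertical axis, bins of 0.02) by the SD of log2(FPKM + 1) over the 6 libraries, with a red line at each of the 9 tested clock genes. Arntl and, at 0.0660, Cry2 lie at the low end, and Per1 at 0.411 lies beyond most features.

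On log2(FPKM + 1), the contrast between the opposed arms of the loop had the same mean in both groups. Over Arntl and Clock, the mean log2(FPKM + 1) was 1.22, 1.25 and 1.56 in BCP replicates 1, 2 and 3 and 1.64, 1.33 and 1.44 in sBCP replicates 1, 3 and 4. Over Per1, Per2, Per3, Nr1d1, Nr1d2 and Dbp it was 3.78, 3.88 and 3.89 in BCP and 4.29, 3.93 and 3.73 in sBCP. Both arms were highest in sBCP replicate 1, the first through Clock, since Arntl was near its own mean there. The first arm minus the second averaged -2.51 ± 0.159 in BCP and -2.51 ± 0.193 in sBCP (n = 3 each, SD), a difference of 0.00330 that is far inside the spread. With a pseudocount of 0.1 in place of 1 the difference was -0.19, on the other side of 0. The contrast's SD of 0.177 belongs to the pseudocount of 1. The spread at 0.1 was not computed, so -0.19 cannot be set against it. No p is given for this score, as its members were chosen. In versions added after the values were seen, the contrast without Clock averaged -1.70 ± 0.0195 in BCP and -1.88 ± 0.282 in sBCP, and without Nr1d1 -2.19 ± 0.129 in BCP and -2.26 ± 0.274 in sBCP. As a ratio of FPKM, Per1 over Arntl was 5.27, 4.64 and 5.94 in BCP replicates 1, 2 and 3, against 10.2, 7.67 and 4.89 in sBCP replicates 1, 3 and 4. That ratio spanned 2.19-fold, Per1 alone 2.08-fold and Arntl alone 1.13-fold.

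**Figure D4:**
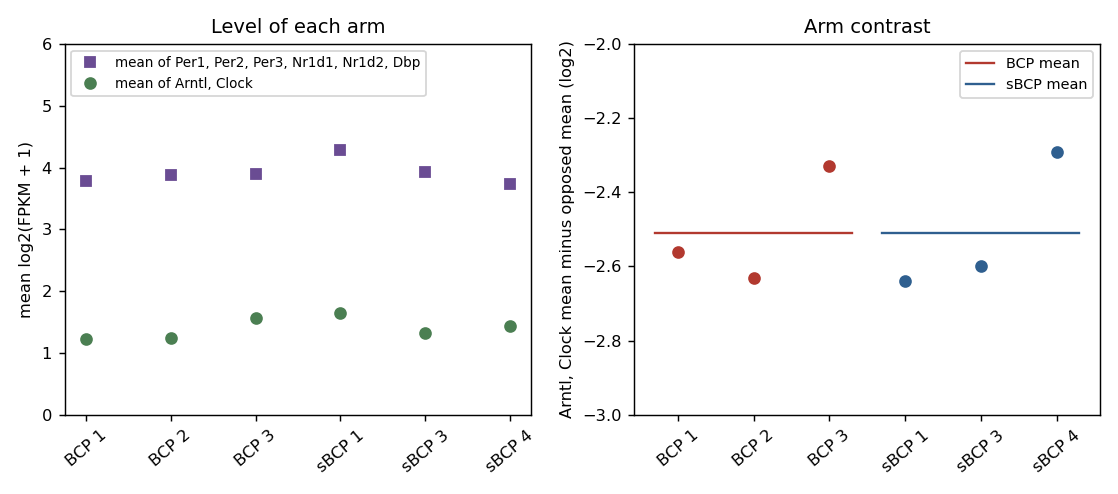
Mean log2(FPKM + 1) of Arntl and Clock and of the 6 opposed genes in each library (left), and the first mean minus the second (right, with group means as lines, on an axis that does not start at 0). Both groups average -2.51, and sBCP replicates 1 and 4 hold the lowest and the highest contrast, -2.64 and -2.29.

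Other genes of the clock likewise gave no call. Of the list of other clock transcription factors, 6 of 11 were tested and 0 passed, with 3 above and 3 below 0 and a median difference of -0.01. Tef, a close relative of Dbp, was at 35.4, 33.9 and 36.8 FPKM in BCP replicates 1, 2 and 3 and at 42.6, 37.6 and 36.3 FPKM in sBCP replicates 1, 3 and 4. It overlapped between the groups, with the top value again in sBCP replicate 1 (log2 difference of -0.13, unadjusted p = 0.156). Hlf, the third PAR-domain factor, was at 0.838 ± 0.283 FPKM in BCP ganglia and 1.15 ± 0.483 in sBCP, and Nfil3, which competes with them at D-boxes, at 2.36 ± 0.790 in BCP and 2.19 ± 0.201 in sBCP (n = 3 each, SD). Bhlhe41, a repressor that binds E-boxes, was at 9.35 ± 0.899 FPKM in BCP ganglia and 8.90 ± 1.17 in sBCP (n = 3 each, SD). Rora and Rorb, activators at ROR elements, and the paralogs Npas2 of Clock and Arntl2 of Arntl were below the filter.

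Of the modifiers of clock proteins, 11 of 14 listed genes were tested, with 4 above and 7 below 0, 0 called and a median difference of -0.06. Csnk1e, a kinase that phosphorylates Per proteins, was at 22.2 ± 1.42 FPKM in BCP ganglia and 20.8 ± 1.26 in sBCP, and Cipc, an inhibitor of Clock, at 15.4 ± 1.12 in BCP and 16.3 ± 0.489 in sBCP (n = 3 each, SD). Usp2, a deubiquitinase under clock control, was at 2.77 ± 0.607 FPKM in BCP ganglia and 3.18 ± 0.600 in sBCP, and Sfpq, a partner of Per complexes, at 25.8 ± 2.27 in BCP and 27.2 ± 0.416 in sBCP. Of the clock output genes, 9 of 10 were tested, with 4 above and 5 below 0, 0 called and a median difference of -0.01. Klf9, a transcription factor that both the clock and glucocorticoids drive, was at 11.1, 11.9 and 14.5 FPKM in BCP replicates 1, 2 and 3 and at 19.1, 16.8 and 11.8 FPKM in sBCP replicates 1, 3 and 4. Its top and second library were those of the Per genes, and its groups overlapped (log2 difference of -0.30, unadjusted p = 0.137). Klf15 was at 8.66 ± 1.20 FPKM in BCP ganglia and 10.6 ± 3.40 in sBCP, Klf10 at 5.96 ± 0.378 in BCP and 5.29 ± 0.357 in sBCP, and Alas1, the first enzyme of heme synthesis, at 27.0 ± 2.26 in BCP and 23.5 ± 4.74 in sBCP (n = 3 each, SD).

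**Figure D5:**
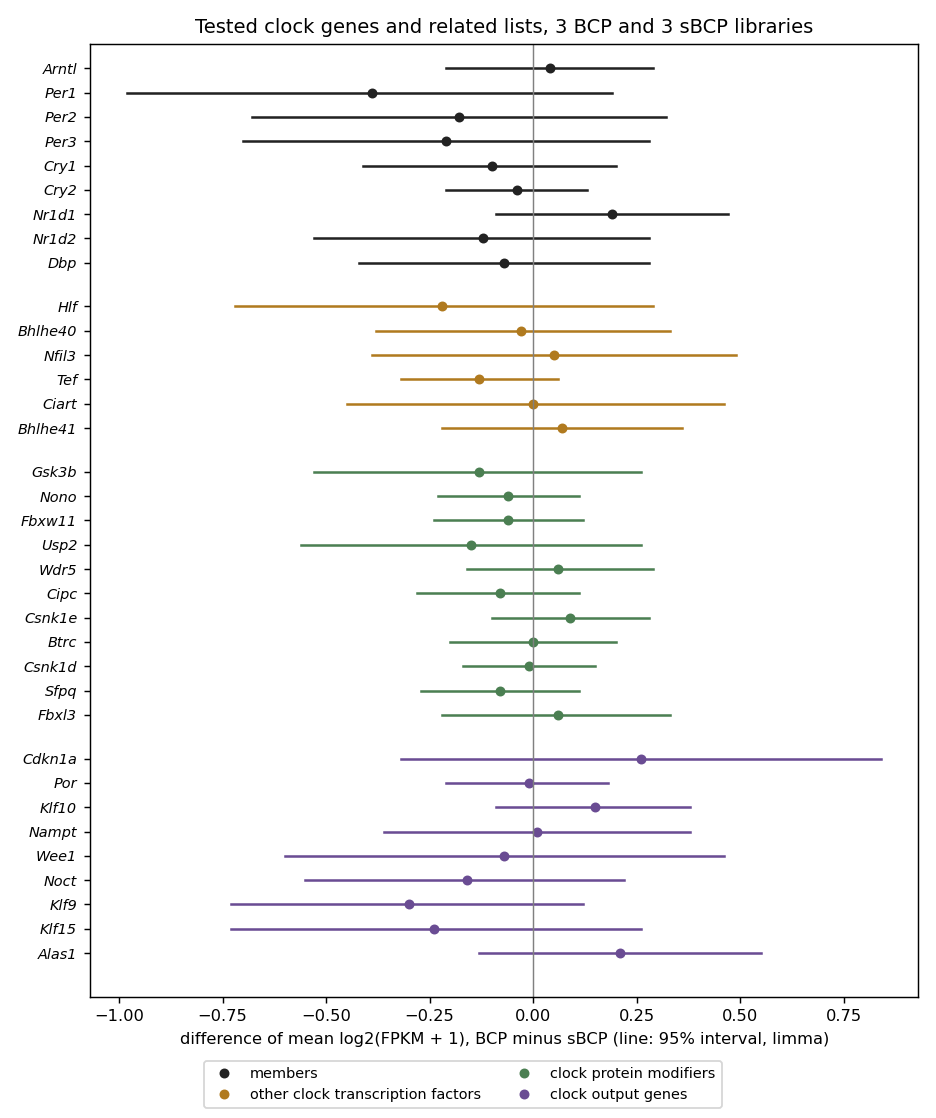
Difference of mean log2(FPKM + 1), BCP minus sBCP, with its 95% interval (limma, 3 libraries a group) for the 9 tested members and the tested genes of 3 related lists, coloured by list. Every interval shown includes 0, and among the members Per1 has the widest, from -0.98 to 0.19, and Cry2 the narrowest, from -0.21 to 0.13.

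Per1 is also a target of glucocorticoids and of activity-dependent signals. The summed level of 8 glucocorticoid targets was 194, 173 and 203 FPKM in BCP replicates 1, 2 and 3, against 279, 222 and 185 FPKM in sBCP replicates 1, 3 and 4. The summed level of 10 immediate early genes was 100.0, 122 and 77.8 FPKM in BCP ganglia and 139, 98.9 and 91.9 FPKM in sBCP. sBCP replicate 1 was the highest library for both sums, as for Per1, and for 5 of the 8 tested glucocorticoid targets and 8 of the 9 tested immediate early genes. After it, the glucocorticoid sum was highest in sBCP replicate 3 and then in BCP replicate 3, as was Per1, but it was lowest in BCP replicate 2. That sum rests mainly on Tsc22d3 and Ddit4, which gave 108 and 93.4 of the 279 FPKM in sBCP replicate 1. Among the other targets, Pdk4 was highest in sBCP replicate 3 and Zbtb16 in BCP replicate 1 (5.46 FPKM). Fkbp5 was highest in sBCP replicate 4 (20.8 FPKM), where Per1 was lowest. Apart from sBCP replicate 1, the libraries did not keep the order of Per1 in the immediate early sum. That sum was second highest in BCP replicate 2, where Per1 was low, and lowest in BCP replicate 3. Jun alone gave 67.7 of the 122 FPKM in BCP replicate 2. No gene of either list was called (0 of 8 and 0 of 9), with 2 above and 6 below 0 among the glucocorticoid targets (median difference of -0.26) and 1 above and 8 below 0 among the immediate early genes (median of -0.30). The 3 genes above 0, named for their sign after their values were seen, were Fkbp5 (log2 difference of 0.06), Zbtb16 (0.19) and Jun (0.23). Dusp1, a phosphatase that both signals induce, was at 11.1, 9.73 and 8.13 FPKM in the BCP samples, against 20.1, 15.4 and 9.96 FPKM in sBCP (log2 difference of -0.56, unadjusted p = 0.0503). Pdk4, a kinase of mitochondrial fuel choice, was at 1.28, 1.64 and 1.91 FPKM in the BCP samples, against 3.29, 3.53 and 2.04 FPKM in sBCP. Pdk4 was the only gene of these lists whose groups did not overlap and the only one at an unadjusted p under 0.05 (log2 difference of -0.58, unadjusted p = 0.0183, limma adjusted p = 1.00). By either measure that is 1 of 8 glucocorticoid targets and 0 of 9 immediate early genes. Of all tested features, 5.40% did not overlap and 1.98% had a limma unadjusted p under 0.05. Tsc22d3, a leucine zipper protein induced by glucocorticoids, was at 82.5 ± 8.11 FPKM in BCP ganglia and 94.1 ± 12.9 in sBCP, and Errfi1, an inhibitor of the EGF receptor, at 10.6 ± 0.722 in BCP and 13.2 ± 3.24 in sBCP. Among immediate early genes, all of them transcription factors or regulators induced by stimulation, Nr4a1 was at 22.6 ± 3.84 FPKM in BCP ganglia and 30.8 ± 10.1 in sBCP, Egr1 at 6.21 ± 1.31 in BCP and 9.48 ± 4.58 in sBCP, Fos at 2.99 ± 0.749 in BCP and 4.63 ± 2.55 in sBCP, and Ier2 at 5.62 ± 0.854 in BCP and 7.33 ± 2.22 in sBCP (n = 3 each, SD). Markers of some other cells, but not of all, were also highest in sBCP replicate 1. Its summed level was 452 FPKM for 7 fibroblast markers, 10289 for 6 myelinating Schwann cell markers and 1172 for 4 erythroid rows, and it was the highest library for every one of these rows. The fibroblast sum was 238 to 419.8 FPKM in BCP ganglia and 305 to 452 in sBCP, the Schwann sum 6483 to 9157 in BCP and 7871 to 10289 in sBCP, and the erythroid sum 299.8 to 934 in BCP and 456 to 1172 in sBCP. Satellite glia markers summed to 2967 to 3057 FPKM in BCP ganglia and 2827 to 3087 in sBCP, with the lowest sum, 2827, in sBCP replicate 1. Macrophage markers summed to 27.2 to 164 in BCP and 41.3 to 68.4 in sBCP. In sBCP replicate 1 the macrophage sum was 54.5, and 0 of 7 macrophage markers were highest there. Endothelial markers, of which Cldn5 was listed at 0 in all 6 libraries, summed to 20.7 to 27.1 in BCP and 20.3 to 27.2 in sBCP, highest in sBCP replicate 1. The part of these signals, of muscle RNA, of the other cell types and of the hour of collection in the levels of the Per genes was not tested.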

How the data were processed

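Polyadenylated RNA was sequenced in pairs from 3 BCP and 3 sBCP samples, per the labels' protocols. The authors deposited FPKM values for each gene and sample, as stated per the file headers. The same table holds the authors' fold change (a ratio), its log2 as deposited, and the authors' p-value and q-value by a test that is not given in the sources used here. Aligner, counting tool, strand setting and build were not given there either. Absolute depth is unknown, so no counting interval is given. For the test, a feature needed 1 FPKM or more in 3 or more of the 6 libraries. The scale was log2(FPKM + 1) and the tool limma 3.58.1 under R 4.3.3 (variance trend, no covariate, Benjamini-Hochberg adjustment over all 13710 features, threshold 0.05, two-sided). Adding 1 understates the change of low genes. The script was tested on simulated data. Members, lists, tests and alternatives were chosen with earlier results of these data known. Genes named were all members, and up to 4 tested genes with the smallest unadjusted p of each clock, glucocorticoid and immediate early list. For Arntl and Dbp, the 3 genes with the nearest profile among those with a mean of at least 5 FPKM were named too. Lists of cell type markers are given as sums. Thra, which overlaps Nr1d1, and Ddit4, for its share of a sum, were named after their values were seen. Promoters are from RefSeq (GRCr8). Figures were drawn with matplotlib 3.10.9.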

Additional observations from a re-analysis of the deposited data

How the results depend on the processing

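In the 15 alternatives fitted (pseudocounts, filters, scalings, variance models, the replicate block and each library left out), limma called 0 members and 0 genes of the 5 related lists. The lowest adjusted p of a member over these fits was 0.529. Arntl and Nr1d1 stayed above 0 and Per1 and Cry1 below in each fit that held them. Without sBCP replicate 1 the differences were 0.04 for Per2, 0.03 for Per3, 0.01 for Nr1d2 and 0.08 for Dbp, all turned round in sign, and with any 1 replicate left out they ran from -0.37 to 0.04, from -0.40 to 0.03, from -0.29 to 0.01 and from -0.20 to 0.08. The cause was not tested. With array weights, whose estimation did not converge, the differences were 0.00360 for Cry2 and 0.12 for Dbp, also turned round in sign. That fit gave -0.47 for Per1 and 0.26 for Nr1d1 (limma unadjusted p = 0.0250 and 0.0217, adjusted p = 0.529 for each). Of its 13710 features, 1262 had a limma unadjusted p under 0.05. The arm contrast differed by -0.19 between the groups with a pseudocount of 0.1, which gives low genes such as Clock more weight, and by -0.09 to 0.11 with a replicate left out. The median SD of the members over libraries was 0.187 to 0.205. The count of all features called was 25, and 9 with 1 FPKM required in all 6 libraries, 39 with array weights, and 14 to 31 with a replicate left out. With the replicate number as a block it was 38, and the differences were -0.59 for Per1 (unadjusted p = 0.0284, limma adjusted p = 0.999), -0.40 for Per2, -0.41 for Per3, -0.32 for Nr1d2, -0.17 for Cry1 and for Dbp and 0.27 for Nr1d1. BCP and sBCP share only numbers 1 and 3, and nothing in the labels says that a number marks a shared animal or batch. The differences of the block fit rest on numbers 1 and 3 alone, since BCP replicate 2 and sBCP replicate 4 have no partner and do not enter them. The library sBCP replicate 4 was the lowest for Per1, Per2, Per3 and Nr1d2. No scaling moved the median of all features by over 0.1. With 3 libraries a group and unknown depth, true differences of any size inside the printed intervals remain compatible with these values. Clock lay near the floor of the table.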

Other observations

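Genes were also ranked by how near their profile over the 6 libraries lay to that of Arntl and of Dbp, as the root mean square distance of centred log2(FPKM + 1) values among 8458 candidates. Nearest to Arntl were Tnfaip1 (distance 0.0115), Rhbdd3 (0.0135) and Reep1 (0.0160). Tnfaip1 was at 27.9, 29.7 and 31.1 FPKM in BCP replicates 1, 2 and 3, against 29.0, 28.5 and 28.3 FPKM in sBCP replicates 1, 3 and 4. Nearest to Dbp were Bet1 (distance 0.0554), Bhlhe40 (0.0571) and Creg1 (0.0756), against an SD of 0.201 for Dbp. Bhlhe40, an E-box repressor that is itself a clock gene, was at 7.06, 8.54 and 6.72 FPKM in BCP replicates 1, 2 and 3, against 9.32, 6.65 and 6.91 FPKM in sBCP replicates 1, 3 and 4. Like Dbp, it was highest in sBCP replicate 1 and lowest in sBCP replicate 3, and so was Bet1 (13.1 and 8.87 FPKM). These genes were picked by their nearness to the profile of Dbp, so the shared libraries give no support of their own. Over 6 libraries these distances are given as values only.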
